A study of Mus musculus with 28 samples.

Results

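The genes described here are 36 markers of endothelial cells, which line blood vessels, and of mural cells, the smooth muscle cells and pericytes wrapped around them. They were taken from a list of names, 27 for endothelium and 9 for mural cells, and a gene was kept where a probe annotated with its symbol was over an intensity of 24 on at least 7 of 28 arrays. Of the 36, 35 had a probe, and 32 passed, 24 endothelial and 8 mural, out of 8389 genes tested. No probe was annotated for Cldn5, and the probes of Clec14a, Erg and Cnn1 did not pass. The dimmest were Aplnr, over the limit on 13 of 28 arrays, and Kdr, on 20.

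The study asked how LKB1, the kinase encoded by Stk11 that activates AMPK, shapes the response of muscle RNA to contraction. RNA came from the joined gastrocnemius, plantaris and soleus of female FVB mice aged 4 months, hybridised to Illumina BeadChips. The 4 groups, with 7 samples each, were wild type at rest, wild type right after contraction, a skeletal muscle specific LKB1 knockout at rest, and that knockout right after contraction. Contraction was evoked in the animal for 15 minutes through the sciatic nerve. The sources used here do not name the promoter that drove the deletion, and whether vessel cells carried it was not tested. Stk11 itself had a mean log2 intensity of 10.32 ± 0.20 (SD, n = 7) in resting wild type and 8.96 ± 0.32 (SD, n = 7) in resting knockout. After contraction the means were 10.45 ± 0.16 (SD, n = 7) and 8.97 ± 0.22 (SD, n = 7), and the genotypes did not overlap in either state.

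The endothelium of skeletal muscle is mostly capillary, and each fibre runs beside several such vessels. Its cells are held together by adhesion proteins, receive signals from fibres through receptors for vascular endothelial growth factors and angiopoietins, and pass oxygen, glucose and fatty acids to the fibre. Pericytes support the capillaries, while contractile smooth muscle around arterioles sets blood flow. In RNA from whole muscle a lower level of such a gene can come from fewer cells of the type or from less RNA per cell, and these cannot be told apart.

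Endothelial genes share binding sites of ETS factors, a family that includes the members Ets1 and Erg. The RefSeq promoter windows of the members (GRCm38.p6, 250 bases before to 50 after the start) were therefore searched for AGGAAG on both strands. That is a single sequence around the shorter ETS core GGAA, so other ETS-type sites were not counted. Windows were at hand for 18 of the 36 members. AGGAAG lay in 9 of 17 windows of endothelial members, 52.9%, which belong to 8 of 12 genes, and in 0 of 6 windows of mural members, against 35.35% of all 32851 windows. A match describes the letters in the window, not a bound site. The windows of 3 endothelial members are shown because each had an unadjusted p under 0.05 between the genotypes at rest and they differ in this motif, which stands in capitals. In Flt1 the motif begins 129 and 53 bases before the start, and in Robo4 it begins 49 bases before it. The Kdr window holds no AGGAAG, but it does hold GGAA with other bases around it. Windows of Mmrn2, Gpihbp1, Icam2 and Tmem204 were not at hand.
Flt1, chr5:147725962-147726261, minus strand: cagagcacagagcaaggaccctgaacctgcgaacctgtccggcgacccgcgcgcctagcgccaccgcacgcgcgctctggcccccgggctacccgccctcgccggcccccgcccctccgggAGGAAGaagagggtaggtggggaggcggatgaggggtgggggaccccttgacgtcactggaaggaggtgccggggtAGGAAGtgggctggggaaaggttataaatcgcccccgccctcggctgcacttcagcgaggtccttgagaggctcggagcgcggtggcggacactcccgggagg
Robo4, chr9:37401722-37402021, plus strand: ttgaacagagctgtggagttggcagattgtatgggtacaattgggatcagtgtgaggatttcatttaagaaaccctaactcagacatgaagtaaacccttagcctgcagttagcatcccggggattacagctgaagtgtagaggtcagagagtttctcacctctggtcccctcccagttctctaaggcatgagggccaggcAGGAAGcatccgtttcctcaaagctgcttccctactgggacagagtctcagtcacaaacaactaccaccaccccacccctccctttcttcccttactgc
Kdr, chr5:75978406-75978705, minus strand: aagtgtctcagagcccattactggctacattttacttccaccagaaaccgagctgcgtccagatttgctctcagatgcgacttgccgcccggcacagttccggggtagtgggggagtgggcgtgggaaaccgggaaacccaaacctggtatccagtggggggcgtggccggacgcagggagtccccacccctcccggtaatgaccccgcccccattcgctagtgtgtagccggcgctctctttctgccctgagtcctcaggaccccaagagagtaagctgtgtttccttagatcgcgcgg

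Values below are log2 intensities of the brightest probe of a gene after background correction with an offset of 50, which shrinks differences of dim genes. A difference was called where limma's Benjamini-Hochberg adjusted p over all 8389 genes was under 0.05. Some arrays stand apart. Slow-fibre genes were low on 3 arrays, number 4 of contracted wild type and of both knockout groups. Lymphocyte genes were high on 9 arrays, numbers 4 and 5 of resting wild type, 7 of contracted wild type, 1, 2 and 4 of resting knockout and 1, 2 and 5 of contracted knockout. The 2 knockout arrays numbered 1 had the lowest mean level of the endothelial members. Counts without each set are given with the results.

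**Figure D1:**
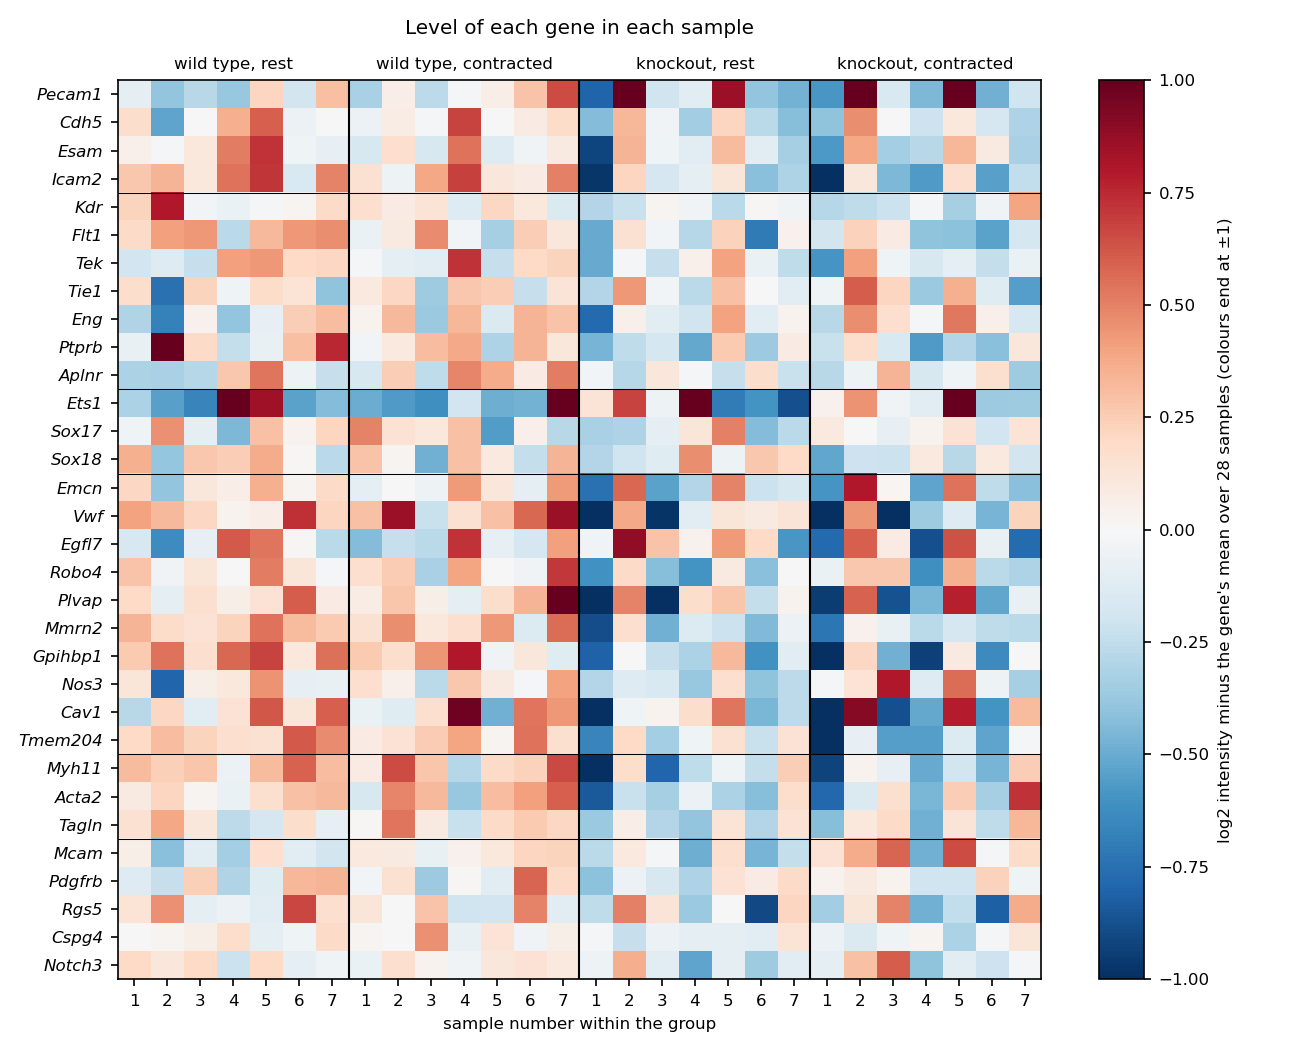
Log2 intensity of each of the 32 genes (rows, grouped by role) in each of the 28 samples (columns, 7 per group), minus the gene's mean over all samples, with red above and blue below that mean and colours ending at ±1. The columns of knockout sample 1 are blue for most genes at rest and after contraction, while those of knockout samples 2 and 5 are red for many endothelial genes.

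In resting muscle the vessel genes lay lower in knockout than in wild type for 27 of 32 members, and 2 of these differences, Mmrn2 and Gpihbp1, were called. All genes were split nearly evenly, with 51.3% below 0. The median log2 difference was -0.25 for the 24 endothelial members and -0.18 for the 8 mural members, beside -0.01 for all genes. Members moved together by sample, so their number does not stand for separate observations. The median level of the members in a sample had an SD of 0.37 (endothelial) and 0.25 (mural) within groups, pooled over the 4 groups. The shift of the members as a set was not tested. Of all genes 3.75% were called at rest, and 1.93% were called as lower. A further 8 members had an unadjusted p under 0.05 and did not pass the adjustment. With the called ones that makes 10 of 32 members, beside 1832 of all 8389 genes.

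Mmrn2, a matrix protein that endothelial cells deposit on their abluminal side, ranged from 9.55 through a median of 9.67 to 9.95 in resting wild type. In resting knockout it ranged from 8.51 through 9.19 to 9.57. Only knockout sample 2 reached into the wild type range, and all 7 knockout samples were below the wild type median. The log2 difference was -0.58 (SE 0.13, limma adjusted p = 0.0150, n = 7 and 7), a level 66.8% of that in wild type.

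Gpihbp1, the capillary protein that carries lipoprotein lipase to the vessel lumen, ranged from 9.84 through 10.28 to 10.41 in resting wild type. Resting knockout spanned 8.93 to 10.06 with a median of 9.51. Sample 5 was the one knockout sample inside the wild type range. The log2 difference of -0.66 (SE 0.19, limma adjusted p = 0.0441, n = 7 and 7) put knockout at 63.2% of wild type. This call lies close to the threshold. It was lost when any of 14 of the 28 samples was left out (adjusted p up to 0.131), namely numbers 1 to 5 and 7 of resting wild type, 1, 2 and 6 of contracted wild type, 1, 3, 4 and 6 of resting knockout and 3 of contracted knockout.

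Among the adhesion proteins, Icam2, a ligand of leukocyte integrins, ranged from 8.54 through 9.03 to 9.41 in resting wild type and from 7.72 through 8.52 to 8.91 in resting knockout. Its groups overlapped, and the log2 difference of -0.56 (SE 0.18) missed the threshold (limma adjusted p = 0.0724, n = 7 and 7). The junction cadherin Cdh5 differed by -0.21 (95% interval -0.54 to 0.11) and the tight junction protein Esam by -0.30 (95% interval -0.67 to 0.06). For Pecam1, the adhesion molecule that most often marks endothelium, the difference was 0.11 with a wide interval of -0.47 to 0.68. Pecam1 in resting knockout ran from 7.95 to 9.80 with a median of 8.55, and samples 2 and 5, at 9.80 and 9.61, stood above all wild type samples. A dimmer second probe of Pecam1 gave -0.17.

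The receptors gave 5 of 7 differences below 0 and 0 calls. Flt1, a receptor of vascular endothelial growth factors, ranged from 9.88 through 10.56 to 10.62 in resting wild type and from 9.45 through 10.13 to 10.38 in resting knockout. Those ranges overlap, and wild type sample 4, at 9.88, was far below the others of its group. The log2 difference was -0.44 (SE 0.15, limma adjusted p = 0.0941, n = 7 and 7). Kdr, the main signalling receptor of that growth factor, differed by -0.28 and Ptprb, the phosphatase that acts on the angiopoietin receptor, by -0.47. Tek, the angiopoietin receptor, differed by -0.19, while its partner Tie1 at 0.07, the transforming growth factor co-receptor Eng at 0.02 and the apelin receptor Aplnr at -0.01 were near 0. Kdr was over the limit on 7 of 7 resting wild type and 4 of 7 resting knockout arrays, and Aplnr on 2 and 4. Of the 3 transcription factors Sox17 differed by -0.17, Sox18 by -0.05 and Ets1 by 0.03. Ets1 spread widely, with an SD of 0.86 in each resting group, so its small difference is imprecise.

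Of the other endothelial surface and secreted proteins 9 of 10 lay below 0, with a median of -0.40, the lowest of the 4 endothelial groups. Besides both called genes this group held Tmem204, a membrane protein of endothelial junctions, at -0.42 (limma adjusted p = 0.102, n = 7 and 7) and the guidance receptor Robo4 at -0.39. The clotting factor Vwf, stored in endothelial granules, differed by -0.56 (SE 0.28). Plvap, of the diaphragms of caveolae, stood at -0.38, Cav1, the coat protein of caveolae, at -0.43, Emcn, a surface sialomucin, at -0.21, and the nitric oxide synthase Nos3 at -0.18. Dimmer probes of Nos3 gave -0.27 and -0.24. Egfl7, a secreted vessel protein, was the one gene of this group above 0, at 0.17.

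All 8 mural members lay below 0 at rest, with 0 calls. Myh11, the smooth muscle myosin heavy chain, ranged from 8.28 through 8.65 to 8.93 in resting wild type and from 7.33 through 8.10 to 8.59 in resting knockout. Knockout samples 2, 5 and 7 lay within the wild type range. Its log2 difference of -0.56 (SE 0.19, limma adjusted p = 0.0855, n = 7 and 7) was the largest of the mural genes. Acta2, smooth muscle actin, differed by -0.44 and Tagln, which binds actin filaments, by -0.19. The 5 pericyte and mural surface genes were closer to 0, from Rgs5, a regulator of G-protein signalling, at -0.26 to Mcam, an adhesion protein of pericytes and endothelium, at -0.04. Notch3, the Notch receptor of mural cells, was at -0.18, the proteoglycan Cspg4 at -0.11 and the growth factor receptor Pdgfrb at -0.09. For Mcam 2 dimmer probes gave -0.25 and -0.21. Those of Acta2 gave -0.44, -0.27 and -0.06.

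**Figure D2:**
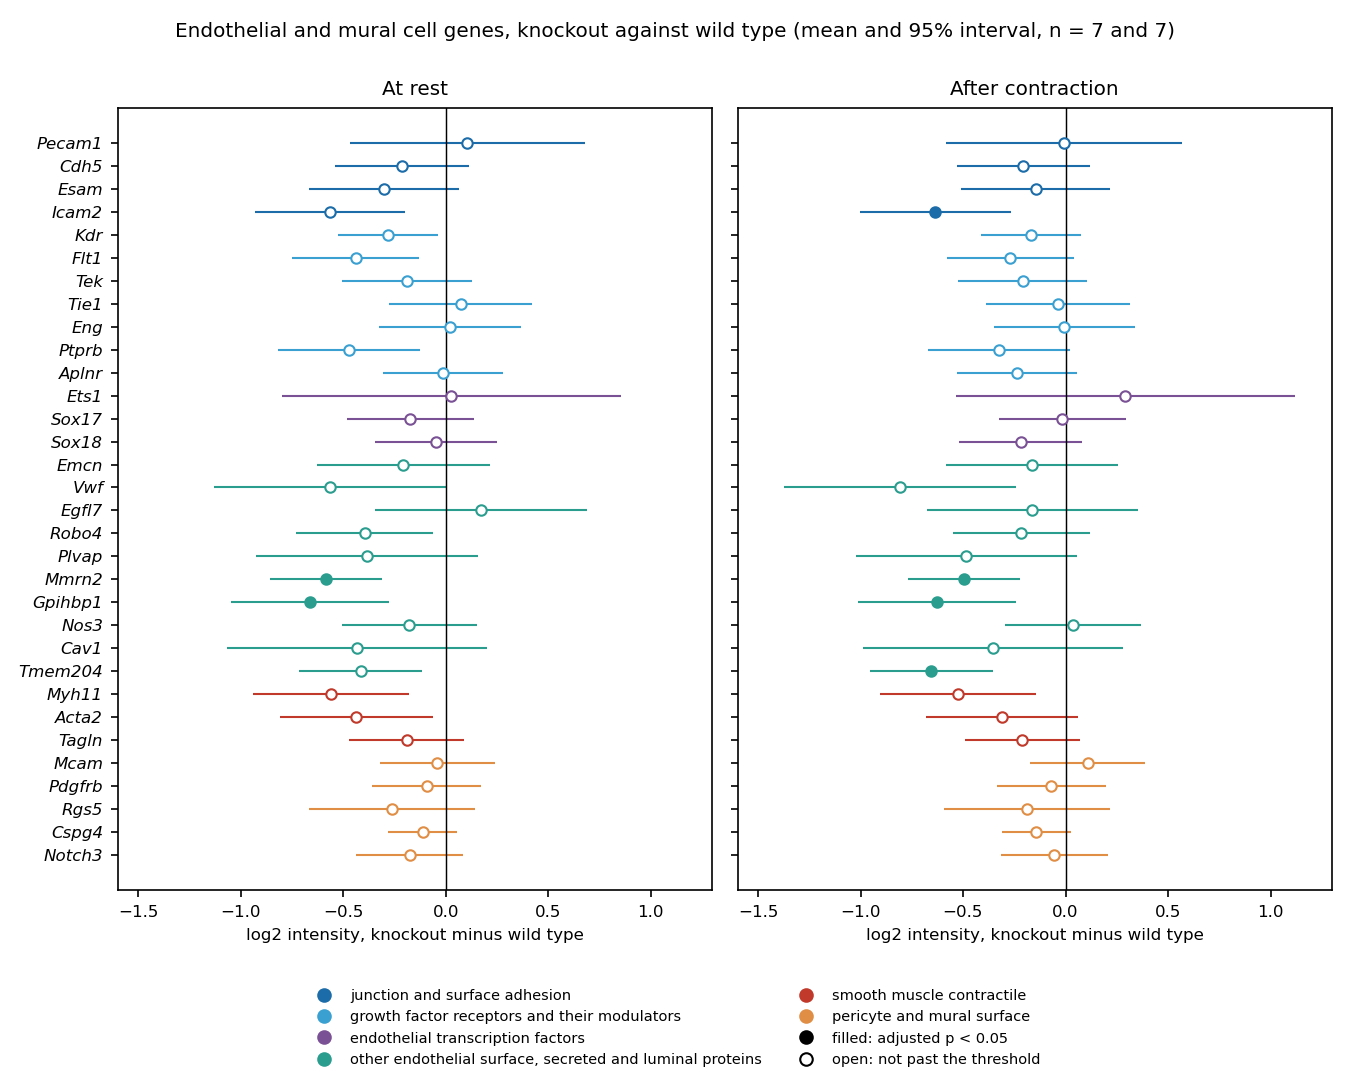
Log2 difference of knockout minus wild type at rest (left) and after contraction (right) for the 32 genes, coloured by role, with 95% intervals from limma and 7 samples per group. Filled points passed the adjusted p of 0.05, 2 at rest and 4 after contraction, and most points lie left of 0 on both sides.

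After contraction 29 of 32 members lay lower in knockout than in wild type (52.4% of all genes did), and 4 endothelial genes, Tmem204, Mmrn2, Icam2 and Gpihbp1, were called as lower. Of all genes 8.87% were called in this comparison and 4.33% were called as lower, so the share of members called has to be read against a larger background than at rest. The median was -0.21 for the endothelial and -0.17 for the mural members, beside the SDs of 0.37 and 0.25 within groups given above. This shift was not tested as a set either. Equal sample numbers in the 2 knockout groups deviated together (correlations of 0.37 to 0.85), so the 2 genotype comparisons may share animals and are not read as independent.

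Tmem204 ranged from 9.47 through 9.60 to 9.99 in contracted wild type. Contracted knockout ranged from 8.32 through 8.91 to 9.43. The groups did not overlap, a two-sided exact permutation p of 0.000583, the smallest that 3432 divisions of 7 and 7 samples can give. The log2 difference was -0.65 (SE 0.15, limma adjusted p = 0.00645, n = 7 and 7), a level 63.5% of that in wild type, and it kept its call when any 1 sample was left out.

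Mmrn2 ranged from 9.27 through 9.57 to 9.96 in contracted wild type and from 8.68 through 9.15 to 9.45 in contracted knockout. Knockout samples 2 and 3 lay above the lowest wild type sample. The log2 difference was -0.49 (SE 0.13, limma adjusted p = 0.0199, n = 7 and 7). Without contracted knockout sample 1, the lowest of the group, the call was lost (adjusted p = 0.0620). Over the 28 fits with 1 sample left out the adjusted p ran from 0.0101 to that value.

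For Icam2 contracted wild type spanned 8.64 to 9.37 with a median of 8.84, and contracted knockout 7.65 to 8.86 with a median of 8.24. Knockout samples 2 and 5 overlapped with wild type. Its log2 difference of -0.63 (SE 0.18, limma adjusted p = 0.0257, n = 7 and 7) lost the call without wild type sample 3 or knockout sample 1, 3 or 4 (adjusted p up to 0.0791). Gpihbp1 spanned 9.61 to 10.53 (median 9.91) in wild type and 8.72 to 9.94 (median 9.25) in knockout. Knockout samples 2, 5 and 7 lay in the wild type range. The difference of -0.63 (SE 0.19, limma adjusted p = 0.0346, n = 7 and 7) lost its call without wild type sample 1, 2, 3 or 4 or knockout sample 1, 3, 4 or 6 (adjusted p up to 0.102).

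**Figure D3:**
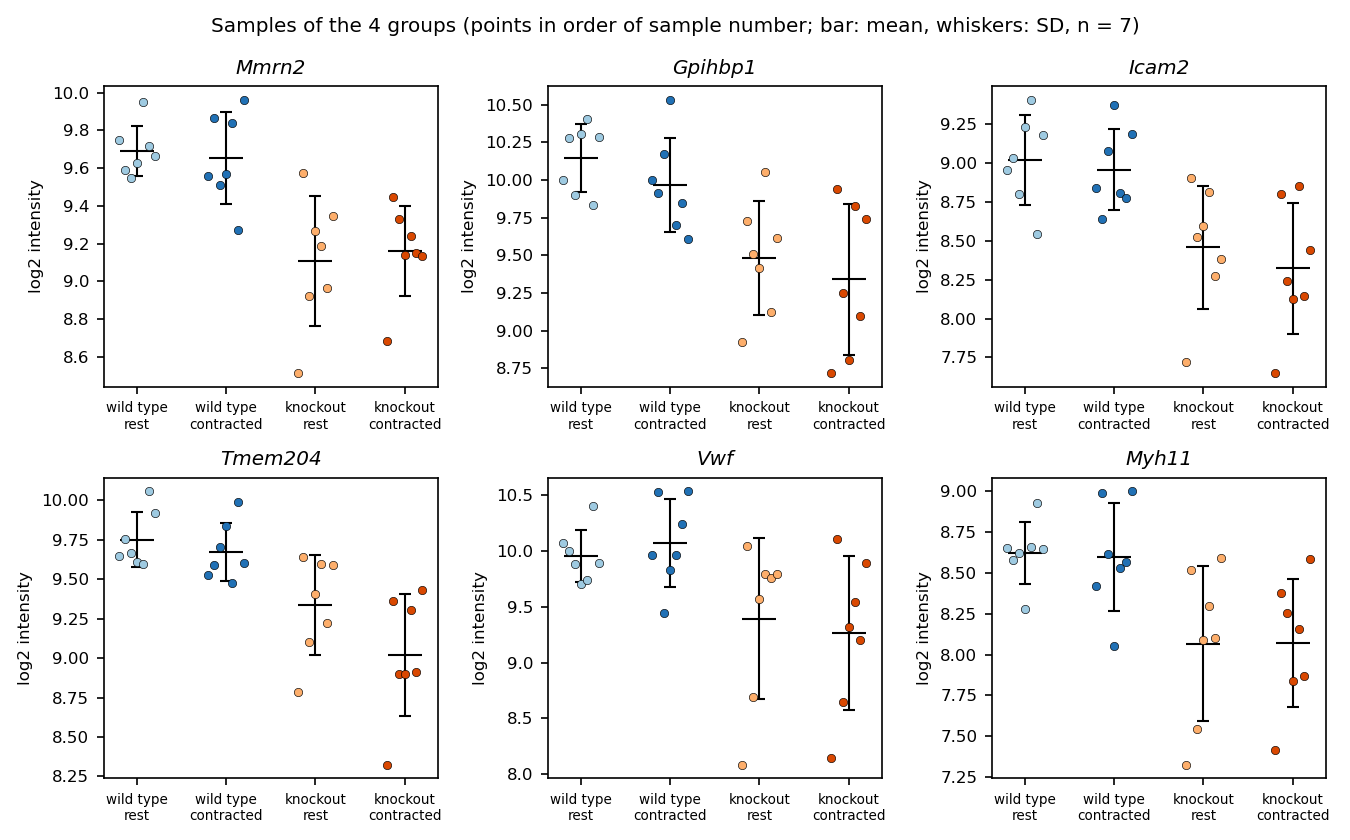
Log2 intensity of 6 vessel genes in every sample of the 4 groups, with points in order of sample number, a bar at the mean and whiskers of 1 SD (n = 7). Knockout points lie lower for each gene, sample 1 is the lowest of both knockout groups, and for Tmem204 the contracted genotypes do not overlap.

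The largest difference among the members after contraction was that of Vwf. It did not pass in the main fit, which used all 28 samples with only a mean per group. It ranged from 9.45 through 9.97 to 10.54 in wild type and from 8.14 through 9.32 to 10.11 in knockout. Samples 1 and 3, at 8.14 and 8.65, set the low end of the knockout group. The log2 difference was -0.81 (SE 0.28, limma adjusted p = 0.0646, n = 7 and 7). Myh11 gave -0.53 (limma adjusted p = 0.0722, n = 7 and 7), close to its value at rest. With wild type and knockout samples of equal number joined as a block, 5 members were called after contraction (7.51% of all genes). Vwf and Myh11 were among them and Gpihbp1 no longer. The labels do not give that pairing across genotypes and it was not checked, so nothing is read from the added calls. The number within a genotype as a random block, across rest and contraction, called Vwf beside the 4 members (10.1% of all genes). The other contractile genes, Acta2 at -0.31 and Tagln at -0.21, were also below 0 and not called.

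The receptors and junction genes showed small differences after contraction, from -0.32 for Ptprb to -0.01 for Eng and Pecam1 with only Icam2 outside that span. Flt1 stood at -0.27, Aplnr at -0.24, Tek and Cdh5 at -0.21 and Kdr at -0.17. Aplnr was over the limit on 5 of 7 contracted wild type and 2 of 7 contracted knockout arrays, and Kdr on 6 and 3. Esam at -0.15 and Tie1 at -0.04 complete these 2 groups. Of the surface and secreted proteins not yet given, Plvap stood at -0.48, Cav1 at -0.35, Robo4 at -0.22, Emcn at -0.16 and Egfl7 at -0.16. Sox18 was at -0.22 and Sox17 at -0.01. The pericyte and mural surface genes again lay close to 0, with Rgs5 at -0.19, Cspg4 at -0.14, Pdgfrb at -0.07 and Notch3 at -0.05. Above 0 were Ets1 at 0.29, Mcam at 0.11 and Nos3 at 0.04. For Mcam the 2 dimmer probes had the opposite sign, at -0.105 and -0.114. The dimmer probe of Pecam1 gave -0.23. Ets1 has a 95% interval of -0.54 to 1.12, and its high values fell on arrays with high lymphocyte genes.

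No vessel gene passed the test after 15 minutes of contraction in wild type. There 0 of 32 members were called by limma, 0 had an unadjusted p under 0.05, and 0% of all genes were called. The 5 members with the smallest p were Mcam at 0.23, Aplnr at 0.24, Flt1 at -0.21, Eng at 0.24 and Gpihbp1 at -0.18. Aplnr was dim, over the limit on 2 of 7 resting and 5 of 7 contracted wild type arrays. The 95% interval of Mcam ran from -0.05 to 0.51. The median was 0.00 for endothelial and 0.04 for mural members. In the knockout, limma called 0 members and 0.0119% of all genes. There 3 members had an unadjusted p under 0.05, beside 170 of all 8389 genes. For the difference between the contraction responses of the genotypes the counts were 0 members and 0% of all genes, with 0 members at an unadjusted p under 0.05. The member with the smallest p there was Tmem204 at -0.24 (95% interval -0.66 to 0.18).

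The knockout samples are read as pairs by number, from the data and not from the labels. In knockout only 9 of 14 samples correlated best with the sample of their own number in the other state. Within these pairs Mcam rose and Tmem204 fell. With the number as a block limma called both, and 0.679% of all genes. That fit also joined wild type samples of equal number, whose correlations ran from -0.04 to 0.55 and which are not read as paired. The SE and adjusted p of both genes therefore rest partly on the wild type pairing. Mcam ranged from 8.73 through 8.97 to 9.38 at rest and from 8.73 through 9.40 to 9.86 after contraction. It was higher after contraction in 7 of 7 pairs, by 0.01 to 0.60. The log2 difference was 0.38 (SE 0.08 with the block, limma adjusted p = 0.0426, n = 7 knockout pairs), and 2 dimmer probes gave 0.24 and 0.28. Tmem204 ranged from 8.79 through 9.40 to 9.64 at rest and from 8.32 through 8.91 to 9.43 after contraction. It was lower after contraction in 7 of 7 pairs, with a difference of -0.32 (SE 0.07 with the block, limma adjusted p = 0.0446, n = 7 knockout pairs).

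Both calls depend on the fit. With the knockout arrays alone and the block limma called 0 of 8389 genes, and without the block the adjusted p of Mcam and Tmem204 was 1.00. Nos3 was higher after contraction in 6 of 7 pairs, at 0.34, Egfl7 was lower in 6 of 7, at -0.34, and Sox18 was lower in 7 of 7, at -0.21. None of these 3 was called with the block.

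**Figure D4:**
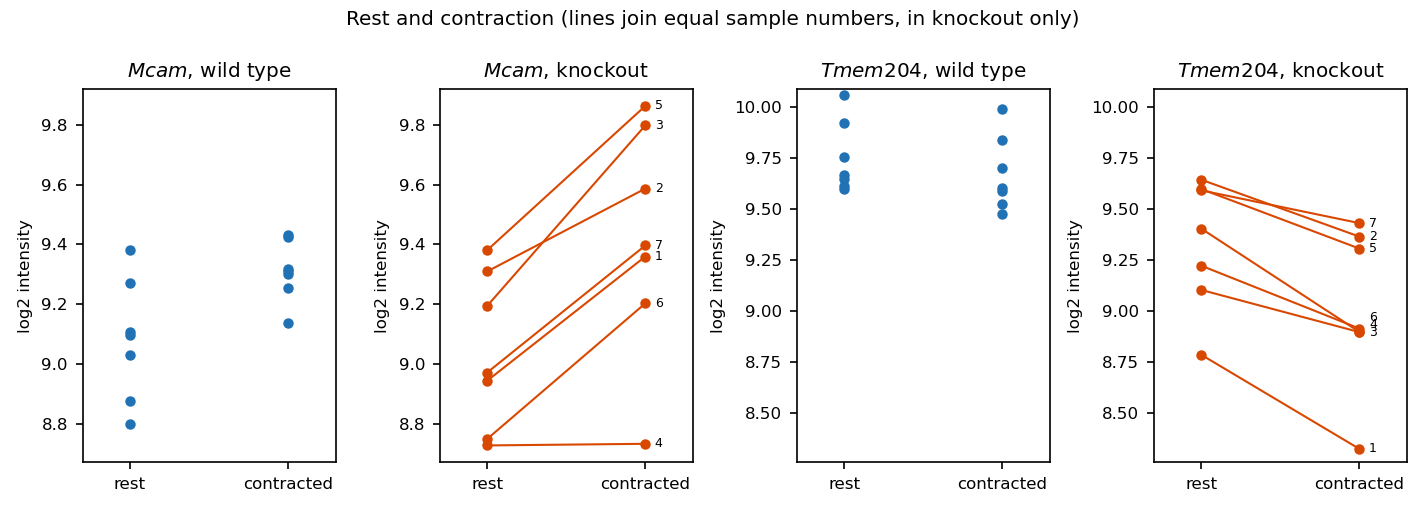
Log2 intensity of Mcam and Tmem204 at rest and after contraction, in 7 samples per group, with lines joining equal sample numbers in knockout only. In knockout Mcam is higher and Tmem204 lower after contraction in 7 of 7 pairs each, by as little as 0.01 for Mcam in pair 4.

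The members varied more among knockout than among wild type samples, as did most of all genes. The SD was larger in knockout for 23 of 32 members at rest (71.9%), beside 59.7% of all genes. After contraction it was larger in knockout for 24 of 32 members (75%), beside 63.2% of all genes. The mean over the 24 endothelial members ran from 8.77 to 9.20 in resting wild type and from 8.19 to 9.02 in resting knockout. After contraction it ran from 8.76 to 9.21 in wild type and from 8.29 to 9.15 in knockout. Knockout sample 1 was lowest in both states, with 28 of 32 members below the group mean each time. Sample 2 had 6 below the group mean in both states, and sample 5 had 6 and 8.

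Adipocyte markers followed the same samples. Of 9 listed, 7 were measured, and their mean level was 7.70 to 9.19 in resting and 7.56 to 10.06 in contracted knockout, beside 8.01 to 9.53 and 7.75 to 9.14 in wild type. Relative to the mean of 28 samples that list stood at -0.75 and -0.78 in knockout samples 1, at 0.74 and 1.19 in samples 2 and at 0.67 and 1.61 in samples 5. The endothelial members stood at -0.63 and -0.53, at 0.20 and 0.33, and at 0.20 and 0.25 in these samples. With the adipocyte mean as a covariate, a fit added after the data were seen, 4 members were called as lower at rest, Gpihbp1, Icam2, Mmrn2 and Tmem204, and 6 after contraction, the same 4 with Myh11 and Vwf. That fit also called more of all genes, 8.09% at rest and 15.6% after contraction, so the added members came with a larger background.

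**Figure D5:**
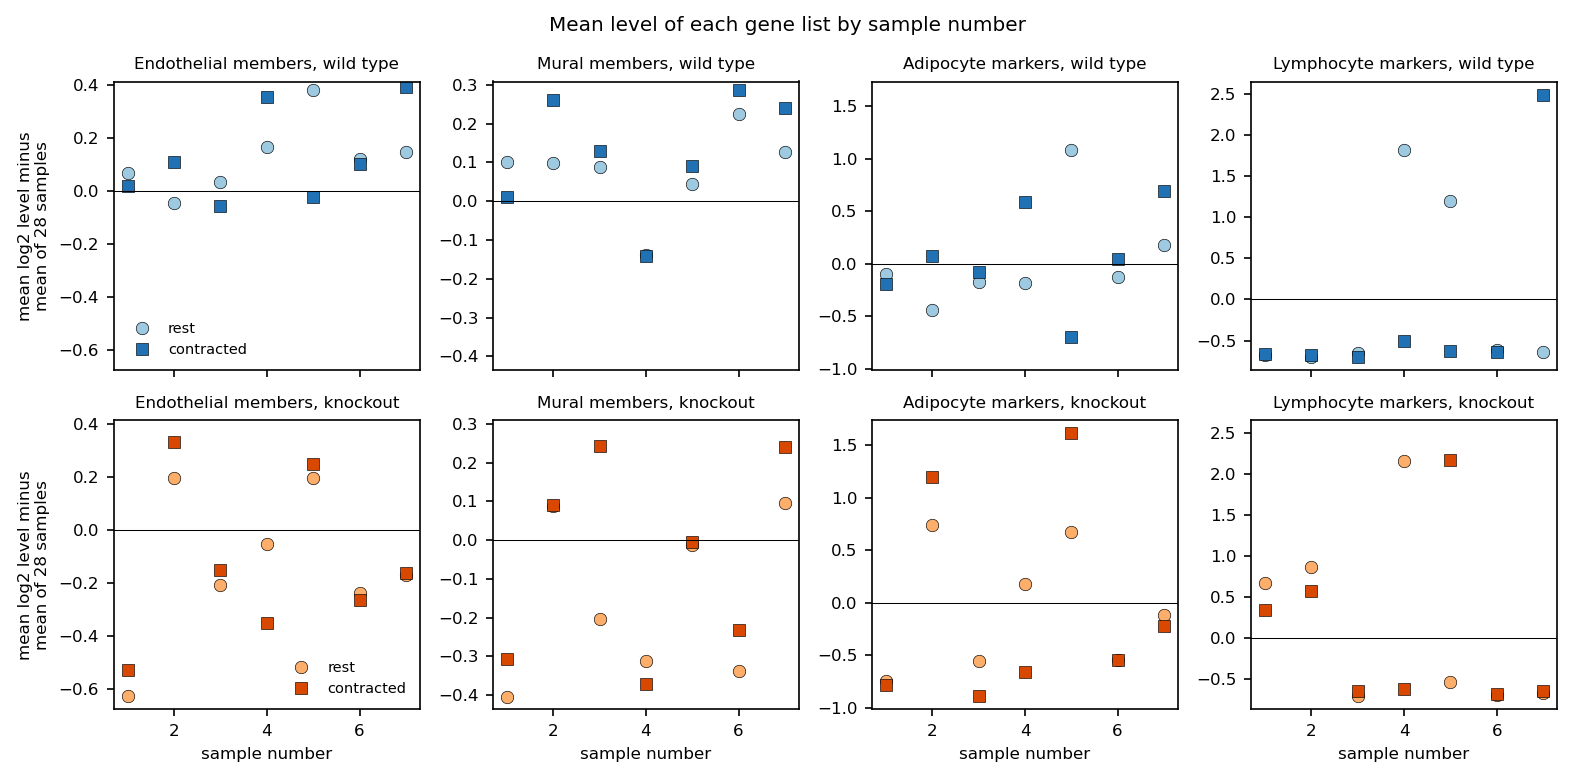
Mean log2 level of 24 endothelial members, 8 mural members, 7 adipocyte markers and 6 lymphocyte markers in each sample, minus the mean over 28 samples, against the sample number, for wild type (top) and knockout (bottom), at rest (circles) and after contraction (squares). In knockout the endothelial and adipocyte panels are low at number 1 and high at numbers 2 and 5 in both states.

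Lymphocyte markers, 6 of 12 measured, had mean levels of 6.19 to 8.70 and 6.19 to 9.38 in resting and contracted wild type and of 6.18 to 9.04 and 6.21 to 9.06 in knockout. Ets1, which lymphocytes also express, followed them. It reached 10.95 and 10.25 in resting wild type samples 4 and 5, 11.19 in contracted wild type sample 7, 10.93 in resting knockout sample 4 and 10.78 in contracted knockout sample 5, with a median of 8.91 to 9.36 in the groups. Without the 9 lymphocyte-high arrays 0 members were called at rest (Mmrn2 at -0.55, adjusted p = 0.0529) and 3 after contraction, Gpihbp1, Icam2 and Tmem204, with 0.405% and 4.24% of all genes called. Without the 3 arrays low in slow-fibre genes the calls were Mmrn2 at rest and Mmrn2 and Tmem204 after contraction, with 2.78% and 6.10% of all genes. Slow-fibre means ran from 11.97 to 12.49 and 10.22 to 12.63 in resting and contracted wild type and from 9.93 to 12.50 and 10.96 to 12.67 in knockout. Without both knockout arrays numbered 1, Mmrn2 was called at rest and Icam2, Mmrn2 and Tmem204 after contraction, with 1.29% and 5.05% of all genes.

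Markers of other cell types differed in their medians between the genotypes, with few calls. The median log2 difference at rest was 0.41 over 11 of 16 macrophage markers and 0.14 over 11 of 13 fibroblast markers, and 0.52 and 0.27 after contraction. Of both lists 0 were called at rest and 1 of 11 each after contraction, the macrophage receptor Mrc1 at 0.90 and the matrix protein Lum at 1.12, a share near that of all genes. The slow-fibre list had a median of -0.55 at rest, with 8 of 9 below 0 and 0 called, and of 0.05 after contraction. Of 8 listed satellite cell genes 3 were measured, with medians of 0.47 and 0.49. The only one called was Itga7, the laminin receptor of muscle, at 0.58 and 0.56, where 3.75% and 8.87% of all genes were called. The median at rest is also the highest value among the genes that endothelium switches on with flow or other stimuli, given below. The 3 measured Schwann cell and nerve genes were all below 0 in both states, with medians of -0.21 and -0.29 and 0 called. For lymphatic endothelium 5 of 7 were below 0 after contraction, with a median of -0.05, while Pdpn, which fibroblasts also express, was called as higher, at 1.00. Group means of the macrophage list were 8.26 and 8.21 in wild type and 8.63 and 8.70 in knockout, and the part of these cell types in the lower vessel genes was not tested.

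Of the genes that signal to vessel cells, 16 of 26 listed ligands were measured. At rest 0 were called, beside 3.75% of all genes, and after contraction 3, beside 8.87% of all genes. Vegfa, the growth factor read by Kdr and Flt1, ranged from 9.06 through 9.44 to 9.92 in resting wild type and from 8.20 through 8.64 to 10.06 in resting knockout, a difference of -0.68 that did not pass (limma adjusted p = 0.0930, n = 7 and 7). After contraction it ranged from 9.40 through 10.03 to 10.93 in wild type and from 8.39 through 9.00 to 9.33 in knockout, and the groups did not overlap. That difference was -1.15 (SE 0.23, limma adjusted p = 0.00327, n = 7 and 7). Fgf1, a fibroblast growth factor, was higher by 0.95 and Bmp4, a bone morphogenetic protein, by 0.61.

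Receptors and Notch targets outside the members gave 3 calls of 15 measured at rest, all lower, and 1 after contraction, also lower. Of all genes 1.93% were called as lower at rest and 4.33% after contraction. Notch4, the Notch receptor of endothelium, ranged from 9.22 through 9.31 to 9.74 in resting wild type and from 8.68 through 8.78 to 8.99 in resting knockout. The groups did not overlap at rest, nor after contraction, when wild type spanned 9.24 to 9.49 and knockout 8.41 to 9.17. The log2 differences were -0.60 (SE 0.10, limma adjusted p = 0.00266, n = 7 and 7) and -0.54 (SE 0.10, limma adjusted p = 0.00271, n = 7 and 7). The endothelin receptor Ednrb was lower at rest, at -0.47, and so was the semaphorin receptor Plxnd1, at -0.26.

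Of 13 measured genes that endothelium switches on with flow or other stimuli, 0 were called at rest and 1 after contraction. That share is no larger than the 8.87% of all genes. The call was Thbd, thrombomodulin, at 0.75. Its probe was dim, over the limit on 1 of 7 contracted wild type and 6 of 7 contracted knockout arrays, so it passed the filter largely through the group where it is high, and nothing is read from this call. Among 15 further smooth muscle genes Lmod1, which nucleates actin filaments in smooth muscle, was called as lower in both states, at -0.39 and -0.40. Lmod1 was the only call of that list in each comparison, where 3.75% of all genes were called at rest and 8.87% after contraction. After contraction the share of the list is no larger than that of all genes. Myh11 passed in neither comparison in the main fit.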

How the data were processed

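RNA was measured on 28 arrays, 7 in each of 4 groups taken from the sample titles. The authors deposited probe intensity values for 25697 probes, which hold values below 0 (27.2%) and share their quantiles, so a background had been subtracted and arrays normalized to each other. The submitters' processing notes list the tools R 3.1.2, lumi 3.0 and limma 3.1. A second deposited table holds a detection p-value per probe, per the file headers. Its 7 columns of resting wild type were matched to samples and its other 21 per-sample columns were not used. Where that p-value was near 0.05 the median normalized intensity was 24.5, close to the limit of 24, and 29 members were detected at p under 0.05 on all 7 matched arrays.

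Intensities were corrected with normexp (offset 50), set on a log2 scale and fitted with limma 3.58.1 in R 4.3.3, with a mean per group. Of 11723 kept probes 11073 had a symbol, and a gene's brightest probe was used. The number of arrays limits the precision (median SE 0.13). The labels do not say that samples came from separate animals, so p-values measure only how these samples vary, which may be technical. Calls were adjusted over all 8389 genes, and the code was tested on simulated data.

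Every kept member is given with its values, called members in full, or the 5 with the smallest p where none was called. Of each other gene list up to 4 called genes per comparison are named. Values of Pecam1, Flt1, Vwf, Myh11 and Vegfa in full were chosen after they were seen. The members and lists were chosen with earlier results of these data known.

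Equal sample numbers were checked as pairs from the correlation, across genes, of deviations from each group's mean. All 7 knockout pairs were over 0.1 (0.37 to 0.85) and 5 of 7 in wild type (-0.04 to 0.55), so only knockout is read as paired, from the data and not from the labels. Of 14 samples each, 9 in knockout and 4 in wild type correlated best with their own number in the other state. The division is not sharp. Knockout pairs 3 and 4, at 0.37 and 0.44, lay below wild type pairs 1, 4 and 6, at 0.55, 0.45 and 0.48. The block fit of the contraction comparisons joined equal numbers in wild type as well.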

Additional observations from a re-analysis of the deposited data

Results flagged for a closer look

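A sample far from the 6 others of its group was looked for in 128 groups, 32 genes in 4 groups each. It was found in 10 groups and 9 genes, and chance flags about 1 group in 20. In resting wild type, Kdr (7.59) stood high and Nos3 (7.41) and Emcn (8.99) low in sample 2, Flt1 (9.88) stood low in sample 4 and Plvap (10.38) high in sample 6. In contracted wild type, Ets1 (11.19) and Plvap (10.82) stood high in sample 7, which is also high in lymphocyte genes, Cdh5 (8.68) high in sample 4 and Cspg4 (7.84) high in sample 3. In contracted knockout, Mmrn2 (8.68) stood low in sample 1. The cause was not tested for any of these.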

How the results depend on the processing

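The medians of the endothelial and mural members stayed below 0 in both genotype comparisons under the settings tried, single left-out samples aside, from -0.31 to -0.14 and from -0.27 to -0.13 at rest, and from -0.30 to -0.13 and from -0.23 to -0.10 after contraction. A fit of only the groups compared or with a replicate block, fixed or random, could not move these medians, so nothing is read from those settings here. The number of called members did change. At rest it was 2, and became 1 without normexp, with no filter on dim probes, with the replicate block, without the 3 arrays low in slow-fibre genes and without both knockout arrays numbered 1, 0 without the 9 lymphocyte-high arrays, 4 with the adipocyte covariate and 8 with array weights, and leaving out 1 sample gave 1 to 3. After contraction it was 4, became 10 with array weights, 6 with the adipocyte covariate, 5 with the replicate block, 3 with no filter, with only the groups compared, without the lymphocyte-high arrays or without knockout number 1, and 2 without the 3 slow-fibre-low arrays, and Gpihbp1 was lost in 5 of the 14 settings tried, and leaving out 1 sample gave 1 to 6. Array weights raised the calls over all genes from 315 to 951 at rest and from 744 to 2615 after contraction. In the genotype comparisons the replicate block joined wild type and knockout samples of equal number, a pairing that the labels do not give and that was not checked. In the contraction comparisons it joined rest and contraction within each genotype. In knockout contraction 2 members were called with the replicate block, where 57 genes were called in place of 1. Without the block 0 were called when any 1 sample was left out. With the numbers within a genotype as a random replicate block (correlation 0.413) 3 members were called at rest and 5 after contraction (4.82% and 10.1% of all genes). The sets of arrays left out, the covariate, the random block and the fit of knockout alone were chosen after seeing the data, and the cause of these changes was not tested. Single genes were followed only if called in the main fit, or as the 5 with the smallest p where none was called. Among these, 27 calls were lost with 1 sample left out and 14 under other settings, where 2 were gained. Calls gained by other members, as with array weights, are not in that count.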
